A study of Drosophila melanogaster with 2 samples.

Results

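Glut4EF and CG46467 are overlapping genes on chromosome 3R of Drosophila melanogaster, and they are described here by every region in which a tagged form of Clock (Clk), a transcription factor of the circadian clock, was recovered. They were chosen by their number of reproducible regions in this experiment, so that number is a description of the choice and not a result. A region was counted when its summit, the position of strongest signal, lay in either gene or within 1 kb of it. By this rule 9 of 2464 reproducible peaks belonged to the genes. So did 84 of 30000 candidate regions called on both replicates pooled, 74 of 30000 called in replicate 1 and 70 of 30000 called in replicate 2. The pooled candidate list is labelled as peaks and background for IDR, so a candidate is not by itself a bound site. Reproducible peaks are the regions that passed the authors' irreproducible discovery rate (IDR) threshold.

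The assay was chromatin immunoprecipitation followed by sequencing (ChIP-seq) on whole adult males of the strain Clk-GFP, a transgenic line with Clk fused at its C-terminus to eGFP. The chromatin was sonicated and precipitated through the GFP tag according to the description of the samples, although their antibody field names Clk. There was 1 group with 2 biological replicates and no untagged or mutant group, so no comparison between conditions could be made and no result below carries a p-value. The age of the flies is given as unknown in the labels and the hour of collection is not given in the sources used here. Chromatin of all tissues was mixed, so a region bound in a small set of cells and a region bound weakly in many cells cannot be told apart.

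Clk pairs with Cycle, and the pair activates genes of the clock loop through the E-box CACGTG. Glut4EF encodes a zinc finger protein named after the mammalian GLUT4 enhancer factor, which binds the promoter of the insulin-regulated glucose transporter gene together with a MEF2 factor. CG46467 has no descriptive name in the annotation. Large genes with alternative start sites, such as Glut4EF, often hold enhancers in their introns. Whether any region described here is an enhancer was not tested.

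Both genes are read from the plus strand and begin at the same base. Glut4EF (FBgn0267336) runs from 9874681 to 9995364 on chromosome 3R of build dm6, a length of 120.7 kb, and CG46467 (FBgn0287598) from 9874681 to 9988876. The single CG46467 transcript has 7 exons, and all 7 are also exons of the transcript Glut4EF-RA. Its coding sequence of 207 bp lies in the first exon (9875141 to 9875347). By position, a region within the shared span lies in both genes. Features of Glut4EF alone, such as its inner start site, also lie within that span. The 2 genes have 9 annotated transcripts, of which 6 start at the shared outer start site and 3, all of Glut4EF, start at an inner site 54.2 kb downstream (9928917). Art4, a protein arginine methyltransferase gene, lies on the opposite strand inside an intron (9982816 to 9986060). A noncoding gene, lncRNA:CR45029, lies inside the first intron and the microRNA gene mir-9371 inside the last exon.

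The sequences at 8 of the 9 reproducible summits are shown because they lie outside the exons of the genes and because 7 of them hold the base patterns described further on. They are numbered from 1 at the outer start site onward and are given 5′ to 3′ on the plus strand of dm6. Each covers 50 bp to each side of the summit, except peak 9, which is given only from the base next to the Art4 start site. Capitals mark the E-box CACGTG, the element GAGAG on either strand, and runs of at least 4 equal letters G or C.

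Peak 1, intron 1 (chr3R:9884513-9884613): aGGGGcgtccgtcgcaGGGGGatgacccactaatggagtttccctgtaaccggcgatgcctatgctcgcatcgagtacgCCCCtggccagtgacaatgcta

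Peak 2, upstream of the inner start site (chr3R:9928627-9928727): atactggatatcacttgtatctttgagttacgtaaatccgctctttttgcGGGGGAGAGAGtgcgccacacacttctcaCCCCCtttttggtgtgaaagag

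Peak 3, intron 2 (chr3R:9931763-9931863): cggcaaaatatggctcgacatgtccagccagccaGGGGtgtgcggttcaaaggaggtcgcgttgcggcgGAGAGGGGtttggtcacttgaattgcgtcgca

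Peak 4, intron 2 (chr3R:9932522-9932622): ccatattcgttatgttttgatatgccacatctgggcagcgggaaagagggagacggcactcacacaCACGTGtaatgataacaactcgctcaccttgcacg

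Peak 5, intron 4 (chr3R:9946642-9946742): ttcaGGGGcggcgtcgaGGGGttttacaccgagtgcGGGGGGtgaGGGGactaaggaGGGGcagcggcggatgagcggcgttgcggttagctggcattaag

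Peak 6, intron 4 (chr3R:9950163-9950263): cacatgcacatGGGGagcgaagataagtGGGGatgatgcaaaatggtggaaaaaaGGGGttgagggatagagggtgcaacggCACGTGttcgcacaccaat

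Peak 8, intron 4 (chr3R:9969386-9969486): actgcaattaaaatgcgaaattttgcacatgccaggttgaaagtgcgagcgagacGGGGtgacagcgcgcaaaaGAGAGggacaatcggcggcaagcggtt

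Peak 9, intron 5 and upstream of Art4 (chr3R:9986061-9986130): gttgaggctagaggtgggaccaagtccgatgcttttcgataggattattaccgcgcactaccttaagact

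The 9 peaks were spread unevenly along the span, with 2 before the inner start site and 7 beyond it. All 9 were of moderate and similar strength. Their signal value, the score that the authors' peak caller gave each region, ran from 77.1 to 116 with a median of 97.7, a 1.51-fold range. Over all 2464 reproducible peaks the median was 109, and 1 of the 9, peak 5, lay above it. They ranked between 1115 and 2215 in that list. All 9 regions were 420 bp wide, the same as the median of the list.

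**Figure D1:**
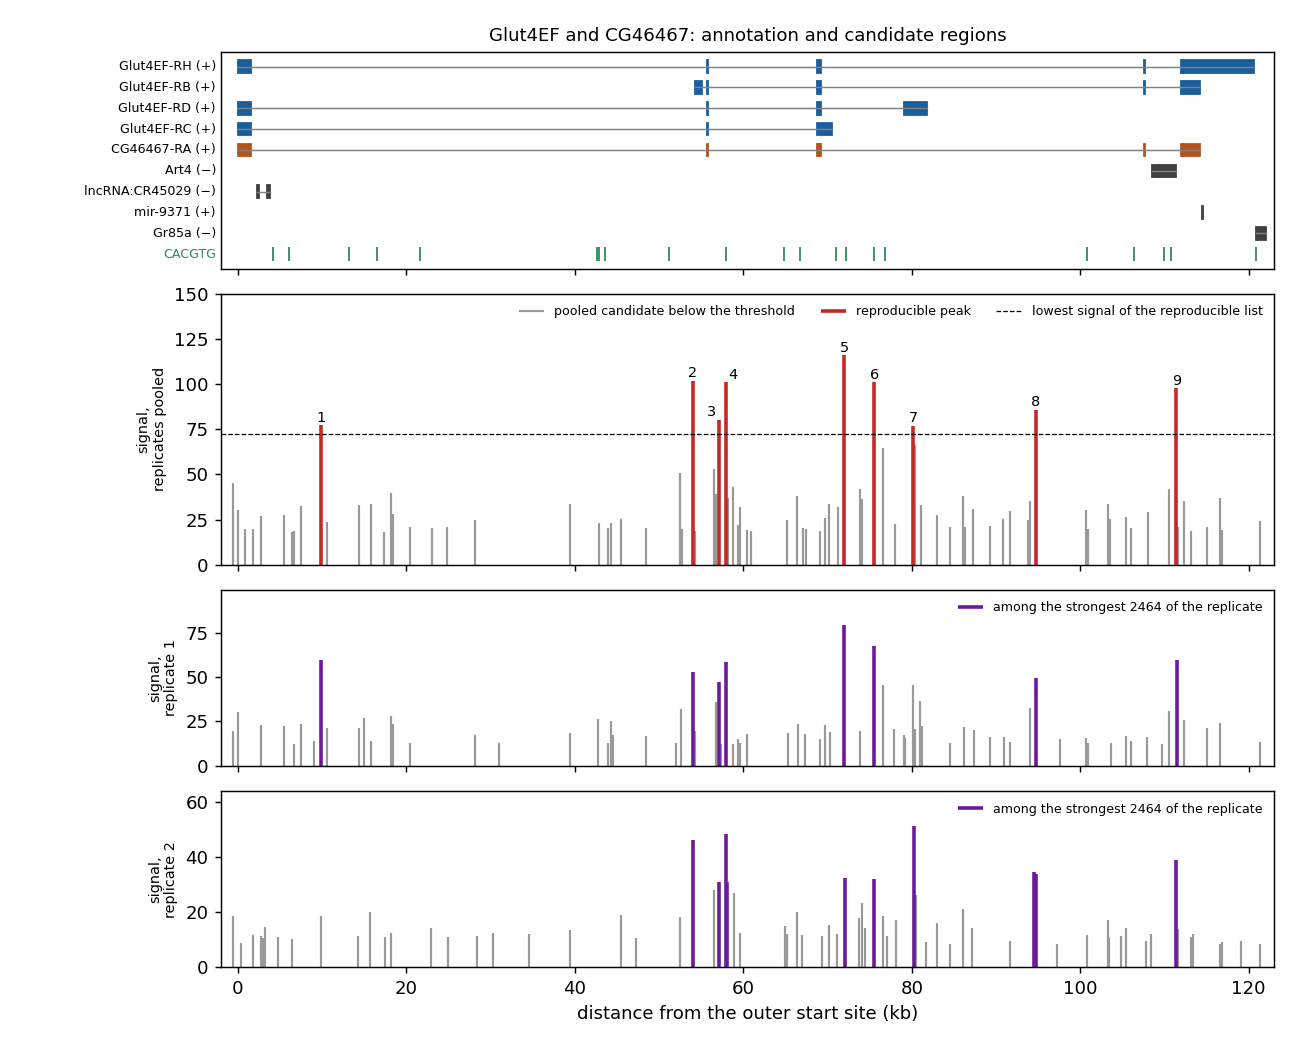
Distance from the outer start site in kb runs along the horizontal axis. The top panel gives 5 transcripts of the genes, the genes near or inside them, and each CACGTG in the span, and the lower panels give the signal of each candidate region at its summit for the replicates pooled, replicate 1 and replicate 2. The 9 reproducible peaks are numbered in red, and 8 of them lie at or beyond the stretch just before the inner start site.

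No reproducible peak lay at the outer start site that both genes share. The nearest pooled candidates were 589 bp upstream (summit 9874092, signal 45.2, rank 5316) and 32 bp downstream of it (summit 9874713, signal 30.3, rank 10716). The upstream candidate was seen in both replicates, with a signal of 19.6 and rank 11919 in replicate 1 and of 18.5 and rank 5922 in replicate 2. The downstream one had a summit within 150 bp in replicate 1 only, at signal 30.4.

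The inner start site of Glut4EF did have a peak. Peak 2 (9928467 to 9928886) had its summit 240 bp upstream of that site, with signal 102 and rank 1371. Its signal was 52.7 in replicate 1, at rank 2057, and 46.1 in replicate 2, at rank 1029. The replicate summits lay 1 and 11 bp from the pooled one. The sequence at peak 2 holds a run of G joined to a GA repeat near its middle.

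Peak 9 (9985870 to 9986289) lay at the start of another gene. Its summit was 20 bp upstream of the Art4 start site, inside the fifth intron of the longest Glut4EF transcript and 57163 bp from the nearest start site of the 2 genes themselves. The pooled signal was 97.7 at rank 1488. Replicate 1 gave 59.6 at rank 1662 and replicate 2 gave 39.1 at rank 1433, so the replicates placed it alike. Without this peak 8 remained for Glut4EF and CG46467.

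The other 7 peaks were far from start sites, between 2896 and 25942 bp from the nearest one. Genome-wide 64.3% of reproducible summits were no more than 500 bp from a start site, against 2 of the 9 here, peaks 2 and 9. Introns held 8 of the 9 summits and an exon held 1.

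Peak 5 (9946482 to 9946901), in the fourth intron, was the strongest, with signal 116 and rank 1115. Its signal was 79.2 in replicate 1, the highest that replicate had at these genes, and 32.4 in replicate 2, at rank 2041. Peak 6 (9950003 to 9950422), 3.52 kb further along the same intron, had a pooled signal of 101, with 67.2 in replicate 1 and 32.0 in replicate 2. At both peaks the rank in replicate 1 (1015 and 1328) was better than in replicate 2 (2041 and 2088).

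Peaks 3 and 4 formed a close pair in the second intron, with summits 759 bp apart. Peak 4 (9932362 to 9932781) had signal 101 at rank 1420, with 58.2 in replicate 1 and 48.6 in replicate 2, at ranks 1744 and 923. Peak 3 (9931603 to 9932022) was weaker in all lists, at 80.1 pooled, 47.4 in replicate 1 and 30.9 in replicate 2. Around this pair candidates were dense: the stretch from 50 to 60 kb past the outer start site held 12 pooled candidates and 3 reproducible peaks, more of each than any other stretch of 10 kb in the genes. It also holds the inner start site.

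Peak 1 (9884353 to 9884772) lay alone in the first intron, 9.88 kb past the outer start site and 44.1 kb before peak 2. Its ranks in the replicates were the farthest apart of the 9. Replicate 1 gave a signal of 59.4 at rank 1673, while replicate 2 gave 18.6 at rank 5883, and both summits fell on the pooled summit to the base. It was the 1 peak of the 9 outside the strongest 2464 regions of replicate 2.

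Peak 7 (9954649 to 9955068) lay in the last exon of the transcript Glut4EF-RD, in its 3′ UTR, an exon that no other transcript of the genes has. Its ranks differed in the opposite direction. Replicate 2 gave 51.2, its strongest region at these genes, at rank 816, and replicate 1 gave 45.7 at rank 2581. The pooled list had a second candidate next to it (summit 9955084, signal 66.5), and replicate 2 had a single summit between the 2, 98 bp past the first. The same replicate 2 region therefore counts for both.

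Peak 8 (9969226 to 9969645), in the fourth intron, had signal 85.9, with 49.4 in replicate 1 and 33.8 in replicate 2. Replicate 2 called a further region beside it, with a summit 202 bp away and signal 34.7, that had no pooled or replicate 1 summit within 150 bp. The replicate 2 signal there thus came as 2 regions of about equal strength.

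All 9 peaks had a summit within 150 bp in both replicates, as did 97.3% of all reproducible peaks. The reproducible list was made from the replicates by IDR, so nothing is read from this count. Among the strongest 2464 regions of each replicate, 7 of the 9 were present in both, against 68.8% of all reproducible peaks, so the genes' share was near that of the genome. Replicate 1 lacked peak 7 there and replicate 2 lacked peak 1. Replicate 1 had 8 of its strongest regions at the genes, each at a reproducible peak. Replicate 2 had 10, of which 8 were at a reproducible peak and the other 2 lay 212 bp past peak 4 and 202 bp before peak 8.

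The signal of replicate 1 over that of replicate 2 ran from 0.893 at peak 7 to 3.19 at peak 1, with a median of 1.52. Over the 2398 reproducible peaks with a summit in both, the median was 1.76, with a 5th percentile of 0.943 and a 95th of 3.48. Peak 7 lay below that lower bound and the other 8 lay inside both bounds. The ratio at peak 7 uses a replicate 2 summit 98 bp from the pooled one, which also counts for the neighbouring candidate. With a limit of 50 bp, 8 of the 9 peaks had a summit in both replicates. Scores were scaled separately in each library, so a ratio other than 1 is not by itself a difference in binding. Across the 9 peaks the order of strength was not shared, with a Spearman rho of -0.35 between the replicates. Across the 37 pooled candidates seen in both it was 0.64. These points come from the same 2 libraries and overlap in part, and the range of the 9 is narrow, so both values are descriptions.

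**Figure D2:**
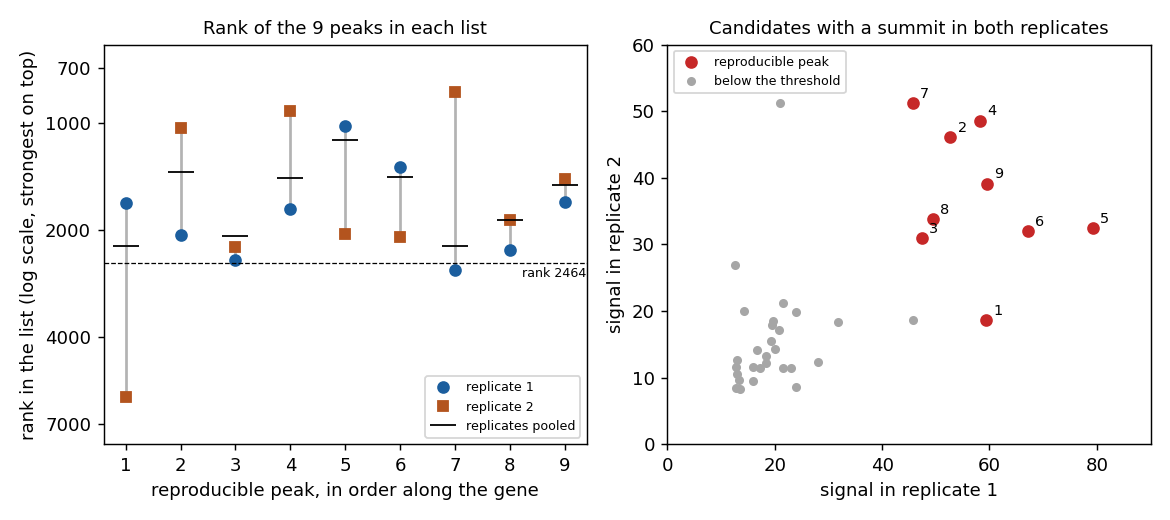
The left panel plots the rank of each of the 9 peaks in replicate 1, in replicate 2 and in the pooled list, on a log scale with the strongest on top, and the dashed line marks rank 2464. The right panel plots the signal in replicate 1 against that in replicate 2 for the 37 candidates with a summit in both. Peak 1 falls below the line in replicate 2 and peak 7 in replicate 1.

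Below the threshold the genes held 75 further pooled candidates. Their signals ran from 17.9 to 66.5 with a median of 25.5, which was also the median of the whole pooled list. The significance score deposited with them (−log10 q) ran from 0.062 to 2.8 and was 0.284 at a signal of 25.5. The weakest reproducible peaks here were peak 7 at 77.1 (rank 2215) and peak 1 at 77.2 (rank 2210), and the lowest signal of the reproducible list was 72.4. Just under it came the neighbour of peak 7 at 66.5 (rank 2812) and a candidate in the fourth intron at 64.9 (summit 9951267, rank 2927). The latter was stronger in replicate 1, at 45.8 and rank 2566, than in replicate 2, at 18.7 and rank 5820.

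The next candidates lay near the inner start site. One in the second intron (summit 9931229, signal 52.8, rank 4125) had a summit within 150 bp in replicate 2 only, at signal 27.9. One in the first intron, 1713 bp upstream of the inner start site (summit 9927204, signal 50.7, rank 4378), was seen in both replicates, at 31.8 and 18.3. The last of the strongest 5 below the threshold was the one 589 bp upstream of the outer start site described above.

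Of the 75, 28 had a summit within 150 bp in both replicates, 28 in replicate 1 alone, 15 in replicate 2 alone and 4 in neither. Over the whole pooled list below the threshold 30.1% were seen in both. Of the pooled candidates 8.21% passed the threshold genome-wide, against 9 of 84 at these genes. The genes were chosen on the latter, so nothing is read from it. The count of 28 moved with the distance that counts as shared, to 11 at 50 bp and 44 at 300 bp.

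**Figure D3:**
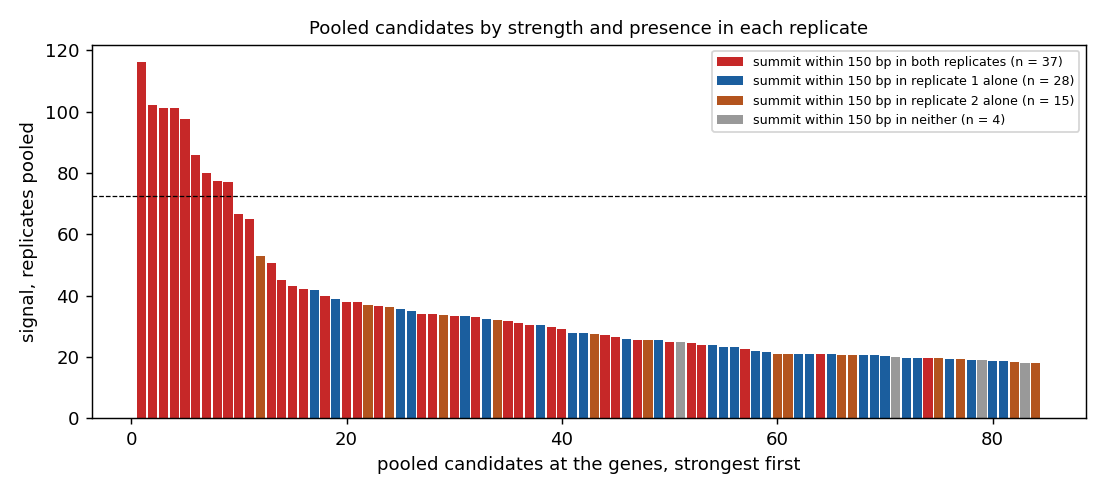
Each bar is 1 of the 84 pooled candidates at the genes, ordered by pooled signal on the vertical axis and coloured by the replicates with a summit within 150 bp. The dashed line marks the lowest signal of the reproducible list, 72.4; the 9 bars above it are all seen in both replicates, and bars seen in 1 replicate become common below a signal of about 40.

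From each replicate's side, 33 of the 74 candidates of replicate 1 had a replicate 2 summit within 150 bp, or 44.6%, against 35.5% over its whole list. For replicate 2 it was 32 of 70, or 45.7%, against 35.4%. Of the 74, 11 had no pooled summit within 150 bp, or 14.9%, against 30.7% over the whole list of replicate 1. Of the 70, 19 had none, or 27.1%, against 44.0% over that of replicate 2. The replicate regions at the 9 reproducible peaks, on which the genes were chosen, are part of these counts. Nothing is therefore read from the differences. The strongest replicate 1 candidate without a counterpart in replicate 2 lay in the 3′ UTR exon of Glut4EF-RD (summit 9955675, signal 36.4, rank 3741).

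Pooled candidates, a list of peaks and background, were spread along the genes. The 84 pooled regions merged into 66 separate stretches that together covered 32.4 kb, or 26.4% of the span. Introns, which make up most of the span, held 69 of the summits, exons 13 and the 1 kb flanks 2. Between the outer and the inner start site there were 29 candidates in 54.2 kb, or 0.535 per kb, of which 9 were seen in both replicates and 2 were reproducible peaks. From the inner start site to the end of Glut4EF there were 53 in 66.4 kb, or 0.798 per kb, of which 26 were seen in both and 7 were reproducible. The first intron of 54.1 kb and the fourth of 38.4 kb held 27 and 29 candidates.

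Among genes, Glut4EF and CG46467 stood high by number of reproducible peaks and lower by density. With 9 peaks they were among 4 of 13945 protein-coding genes with at least that many, or 0.0287%, the others being CHES-1-like and sbb, and this is what they were chosen for. Per kb of gene with its 1 kb margins, Glut4EF had 0.0734 peaks, and 2355 genes, or 16.9%, had more. Only 2795 of the 13945 genes, or 20.0%, had any peak, so most genes with a peak were denser than Glut4EF. By pooled candidates of any strength Glut4EF held 84, the most of any protein-coding gene, followed by CG46467 with 81, and no other gene held more than 62. This count shares its regions with the peaks that the choice used.

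Of the 219 other protein-coding genes between 60.3 and 241 kb long, 130 had no reproducible peak, and the median number of pooled candidates was 15. Candidates per kb had a median of 0.150 in these genes against 0.685 in Glut4EF, and 1 of them, SNF4Agamma, was denser at 0.728. The 5 genes nearest to Glut4EF in number of peaks within this range of length were sbb, Eip75B, CG1677, tai and SNF4Agamma. The transcription factor gene sbb had 9 peaks in 79.1 kb, the best at rank 107. Eip75B, an ecdysone-induced nuclear receptor gene, had 6 peaks and 62 candidates in 114 kb, the best at rank 1043. The other 3 also had 6 peaks each, in CG1677, in the nuclear receptor coactivator gene tai and in SNF4Agamma, which encodes a subunit of the AMP-activated kinase, and their best ranks were 551, 171 and 581. All 5 thus had a stronger best peak than Glut4EF, whose best rank was 1115. The median signal of the 9 peaks at Glut4EF, 97.7, lay above that of Eip75B (82.9) and below those of sbb, CG1677, tai and SNF4Agamma, which ran from 110 to 137.

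**Figure D4:**
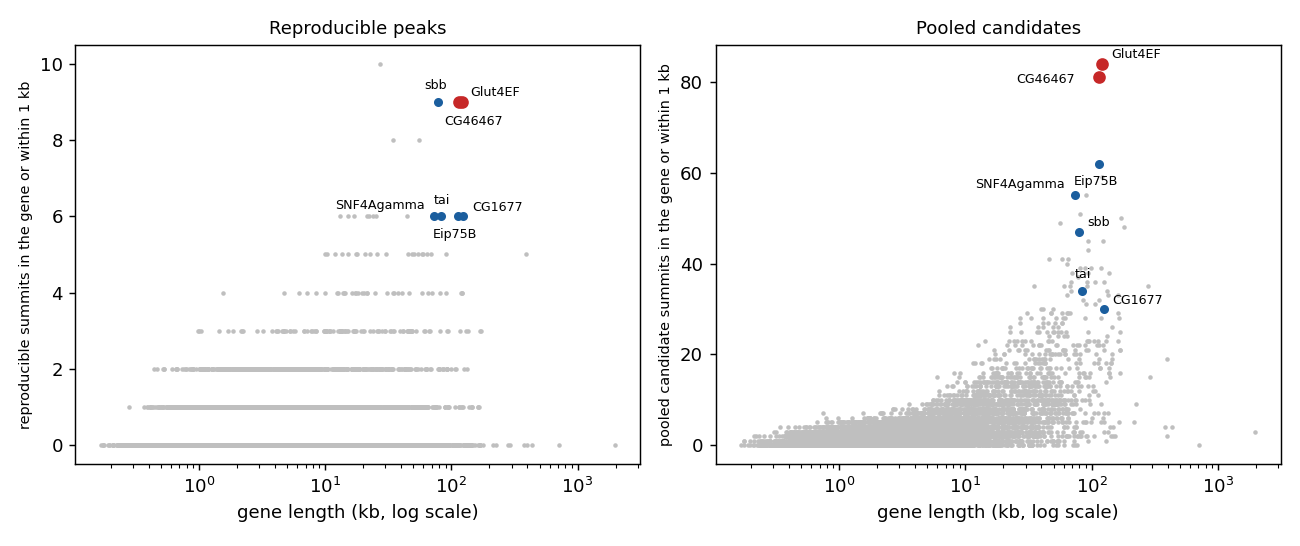
Each grey point is a protein-coding gene, with its length in kb on a log scale and the number of reproducible summits (left) or pooled candidate summits (right) in it or within 1 kb. Glut4EF and CG46467 are in red and the 5 genes nearest to Glut4EF in number of peaks among those of like length in blue. Glut4EF lies at 9 and 84.

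Of the genes beside or inside Glut4EF, Art4 had 1 reproducible summit within 1 kb, that of peak 9, and none inside it. Teh1 and the gustatory receptor gene Gr85a, both on the minus strand, lie 6561 bp left of the outer start site and 180 bp right of the end of Glut4EF. Neither of them, nor lncRNA:CR45029 or mir-9371, had a reproducible summit inside or within 1 kb. Widening the margin around the genes to 5 kb added no peak.

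The E-box CACGTG lay at 2 of the 9 summits, those of peaks 4 and 6. It was searched on both strands within 50 bp of the summit, and 1.34% of all reproducible peaks had it there. Over the 880 reproducible peaks more than 500 bp from a start site, which 7 of these 9 belong to, the share was 1.82%. At peak 4 the E-box (9932588 to 9932593) was centred 18 bp from the summit, next to a CA repeat. At peak 6 (9950245 to 9950250) it was centred 34 bp from the summit. The same 2 peaks held it when the window was widened to 100 bp or to the whole region. With 9 peaks in all, this count says little about how often the genes' peaks hold the sequence.

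Most E-boxes of the genes were not at a peak. The span holds 21 copies of CACGTG, or 1.71 per 10 kb, against 1.23 per 10 kb over the chromosome arms with peaks. Of the 21, 2 lay in a reproducible peak, 4 in a pooled candidate below the threshold and 15 in no candidate region. Of the 4, one lay 191 bp from the summit of the candidate with signal 64.9 and another 157 bp from a candidate with signal 41.7 in the fifth intron. The other 2 were in candidates of signal 23.3 and 19.6. The E-box nearest to the strongest peak, peak 5, lay 236 bp from its summit, outside the region. In all, 6 of the 21 lay in a pooled candidate region, and such regions cover 26.4% of the span. The count is therefore not read as a result.

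The wider E-box CANNTG, which contains CACGTG, was present at 5 of the 9 summits, against 38.5% of all reproducible peaks. The GAGA factor element GAGAG was present at 3, peaks 2, 3 and 8, against 14.3% of all reproducible peaks and 18.3% of those over 500 bp from a start site. The AP-1 site TGACTCA and the DNA replication-related element TATCGATA were at none of the 9, against 1.06% and 2.23% of all reproducible peaks. Over all 84 pooled candidates at the genes, CACGTG was within 50 bp of 3 summits, CANNTG of 42 and GAGAG of 12. The shares over the whole pooled list are not given here, and those of the reproducible peaks are no like measure for these counts. None of these matches shows which protein was bound.

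The summits at these genes were richer in G and C than most. Base composition of the 101 bp windows ran from 26.7% G and C at peak 7 to 65.3% at peak 5, with a median of 51.5%, while the median over all reproducible peaks was 37.6% (5th to 95th percentile 22.8 to 57.4) and the whole of Glut4EF had 43.4%. The composition was above the median of all peaks at 8 of the 9, and peak 7 was the exception. Runs of 4 or more G or C on one strand (GGGG, both strands), a pattern chosen after the sequences were seen, were present at 6 summits, peaks 1, 2, 3, 5, 6 and 8. Peak 5, the strongest, had the most. Over all reproducible peaks 25.2% had such a run, and 31.6% of those over 500 bp from a start site did. Among the 738 reproducible peaks with at least 44.6% G and C, the lowest value of the 8 intronic peaks here, the share was 45.9%. The part of base composition in the runs, and of either in the signal, was not tested.

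The genes were also set beside a list of 20 genes chosen for glucose transport and sugar sensing, a number that includes Mef2 and InR. The list was drawn from the name of Glut4EF and not from any measured link, and earlier results of these data were known when it was made. Of the 20 listed genes 8, or 40.0%, had a reproducible summit in the gene or within 1 kb, against 20.0% of 13945 protein-coding genes. The median number of peaks was 0 in both, and nothing is read from the difference in share. The 8 were nebu, sut1, Tret1-1, bigmax, Hex-A, Treh, Mef2 and InR. The strongest peak was at nebu, a sugar transporter gene, with signal 461 at rank 62, 142 bp from a start site. The insulin receptor gene InR came next with 3 peaks, the best with signal 269 at rank 206, 666 bp from a start site. Hex-A, a hexokinase gene, had 3 peaks, the best with signal 243 at rank 258. The trehalase gene Treh followed with signal 202 at rank 401, the sugar transporter gene sut1 with 198 at rank 417, and bigmax, which encodes the partner of the sugar sensor Mondo, with 145 at rank 730. The trehalose transporter gene Tret1-1 had 1 peak of signal 90.3 at rank 1720, within the range of the 9 at Glut4EF. Mef2, a homologue of the factor that acts with mammalian GLUT4 enhancer factor, had 5 peaks in 45.4 kb, and the best, with signal 146 at rank 712, lay 4674 bp from a start site. The transporter genes Glut1 and Glut3 and the sensor genes Mondo and sug were among the 12 with none, although Glut1 is 79.7 kb long and held 16 pooled candidates. The count of 8 fell to 2 when the 1 kb margin was dropped, so it came mostly from summits just outside the genes. The share of all protein-coding genes without the margin is not given here.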

How the data were processed

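Clk ChIP-seq regions of 2 biological replicates of 1 group were analysed. Candidate regions were called by the authors on each replicate and on the pooled alignments against a control, and the reproducible list was made from them by IDR, per the submitters' processing notes. Peak caller, aligner, filters, thresholds and whether the replicates were separate collections of flies: not given in the sources used here. The deposited score is each region's signal value, on a scale set per library. The deposited −log10 q-value is tied among strong regions (3.6 at each of peaks 2, 4, 5, 6, 8 and 9), so regions were ranked by score. The reproducible list equals the top 2464 of the pooled list. No read counts were used, so depth is unknown. Lists on dm3 were not used.

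Coordinates are dm6, 1-based. Genes are from Ensembl release 115 and sequence from the RefSeq Release 6 assembly. Summits within 150 bp counted as shared. Genes named for likeness have a length between 0.5 and 2 times that of Glut4EF and the nearest number of peaks. The members, lists, motifs and tests were chosen with earlier results of these data known, and no significance test was made. The counting procedures were tested on simulated data. Tables were handled with pandas 2.3.3 and NumPy 2.4.6 in Python 3.11.15, correlations with SciPy 1.17.1, and figures with matplotlib 3.10.9.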

Additional observations from a re-analysis of the deposited data

How the results depend on the processing

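Of 36 alternative values, 29 stayed within 1.5 times of the value reported. With the stronger 1232 of the reproducible peaks, 1 peak remained at the genes in place of 9, or 0.00815 per kb of Glut4EF, since 8 of the 9 ranked below the middle of the list. Of the 75 candidates below the threshold, the number seen in both replicates was 28 at 150 bp, 11 at 50 bp and 44 at 300 bp, 2 distances chosen after seeing the data. Over whole regions of 420 bp, CANNTG was present in 8 of the 9 peaks and GAGAG in 6, in place of 5 and 3, where the searched window is longer. Without a margin around genes, 2 of the genes in the sugar list, which includes Mef2 and InR, had a peak in place of 8. With 1 replicate alone, the strongest regions of that replicate, as many as the reproducible list holds, were counted in place of IDR peaks. The genes held 8 such regions without replicate 2 and 10 without replicate 1. All 8 regions of replicate 1 were at a reproducible peak, as were 8 of the 10 of replicate 2. The number of peaks within 500 bp of a start site, 2, was the same at 250 and 1000 bp. No paired analysis was possible because the series has 1 group. Depth limits on each signal value are unknown.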
